A study of Capra hircus with 4 samples.

Results

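Granulosa cells (GCs) that the authors labelled Primary are described here by the 1457 genes listed under that label. The deposited table holds marker genes for 4 follicle stages. The table holds 5452 rows for 3231 genes, with 1461 rows under Primordial, 1305 under Secondary and 1229 under Antral. Members were all rows whose stage is Primary, with no further selection. For each gene the table gives the share of nuclei with at least 1 unique molecular identifier (UMI, a counted RNA molecule) in the stage and in the other 3 stages together. These shares are pooled over goats, so they carry no replicate error. How single nuclei were assigned to stages is not given in the sources used here.

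Ovary nuclei of 4 goats were profiled by single-nucleus RNA sequencing in droplets, each goat in a library of its own. The breeds were Nubian, described as polytocous with a litter size of at least 3, and Du'an, described as monotocous with a litter size of 1, with 2 goats each. All goats were about 3 years old and received a progesterone-releasing device (300 mg) for 17 days to synchronize estrus, with no other hormone that may cause superovulation, and the left ovary was taken during estrus. Breed and litter size cannot be told apart in this design, and no batch is labelled. The libraries held 9364 and 10893 nuclei with 40573246 and 60566681 UMIs in Du'an 1 and 2. Nubian 1 and 2 held 16988 and 11087 nuclei with 71613892 and 52783453 UMIs. Pairs of libraries shared 54 to 131 cell barcodes, the most between Du'an 1 and Nubian 2. The Du'an 2 library stood apart in a few genes. In the GC-like nuclei described below it held 32 UMIs of COX2 and 27 of ATP6, mitochondrially encoded subunits of the respiratory chain and of ATP synthase, whereas the other libraries held 9930 to 40779 and 18562 to 76209. COX1 and COX3 were not low in Du'an 2. The cause was not tested. The share, the nearness to the Primary column and some of the counts of genes below are also given without this library.

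A primordial follicle is an oocyte with a flat layer of pregranulosa cells. When it is activated, these cells become cuboidal and divide, and the follicle is then called primary. In the secondary follicle the GCs form several layers, and in the antral follicle a fluid-filled cavity separates mural GCs on the wall from cumulus GCs around the oocyte. Anti-Müllerian hormone from the GCs of growing follicles restrains the recruitment of further primordial follicles. Follicle-stimulating hormone drives later growth through its receptor, and estrogen synthesis by aromatase is a property of GCs in large follicles.

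Genes under Primary were seen in more Primary nuclei than in the rest. Of the 1457 genes, 1449 had a higher share of nuclei in Primary, 1 had the same share and 7 had a lower one. The median share was 42.1% in Primary and 34.0% in the other stages, and the median difference was 6.0 percentage points. A difference of at least 10 points was found for 384 genes, at least 20 points for 87 and at least 30 points for 16. The same limit of 10 points was reached by 23.3% of all rows of the table, by 26.4% of the Primary rows, by 14.4% under Primordial, 16.2% under Secondary and 37.8% under Antral. A gene entered the table with a share of at least 25.1% in one of its columns under Primary, so rarer transcripts are not represented. Just inside the limit stood TACC1 with 42.3% against 32.3%, and just outside it YES1 with 44.4% against 34.5%. No test was made of Primary against the other stages, since the members were chosen by these shares.

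SLC7A1, which encodes a transporter of arginine and lysine, had the largest difference, with 70.4% of Primary nuclei and 26.9% of the others. Its share was 60.0% in Secondary, and the sizes of the stages leave 18.4% for Primordial and Antral together, where it has no row. PTPRN2, a tyrosine phosphatase-like protein of secretory granules, was seen in 55.5% against 17.2%. ADGRG6, an adhesion G protein-coupled receptor, was seen in 51.6% against 16.6%, with 32.4% in Secondary. These genes were therefore shared with Secondary, at a lower level there.

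CTNS and ANGPT2 were among the 12 genes with the largest difference and had no row under any other stage. CTNS, the cystine exporter of the lysosome, was seen in 47.2% of Primary nuclei and in 12.9% of the others. ANGPT2, a ligand of the endothelial receptor TIE2, was seen in 52.5% against 18.9%. The largest ratios belonged to less widely seen genes that also had a row under Primary alone. EPB41L3, a linker of the membrane to the cytoskeleton, was seen in 34.1% against 6.2%. APCDD1, an inhibitor of WNT signaling, was seen in 28.6% against 6.1%, and ATP8A2, a phospholipid flippase, in 31.9% against 6.9%. Altogether 214 genes had a row under Primary alone, 797 under 1 further stage and 446 under 2 further stages, and 76 of the 214 reached 10 points.

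**Figure D1:**
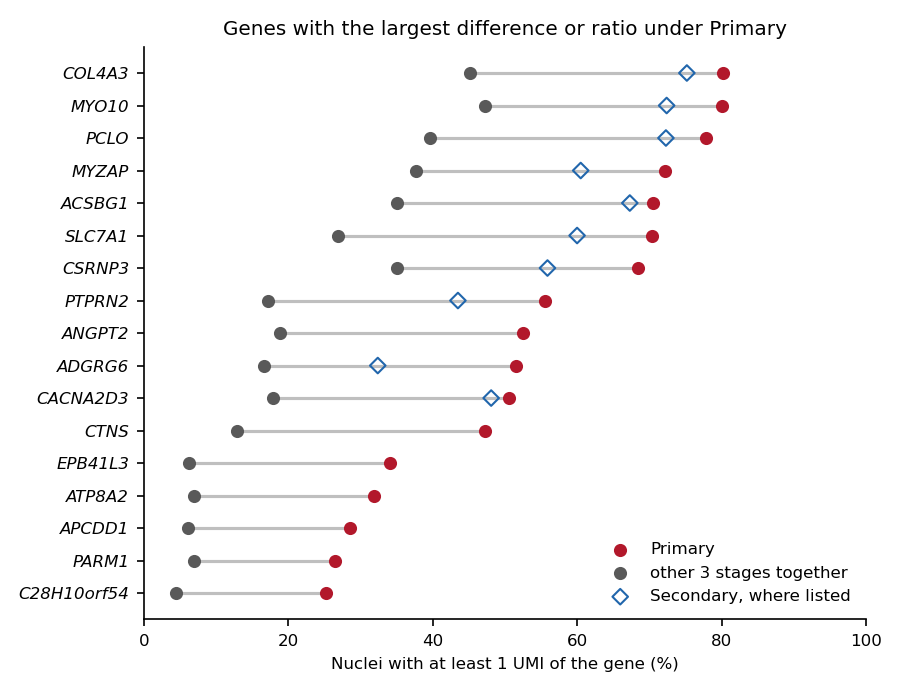
Share of nuclei with at least 1 UMI (x axis, %) of the 17 genes with the largest difference or ratio under Primary. Red points are Primary, grey points the other 3 stages together and open diamonds Secondary where the gene has a row there; SLC7A1 lies at 70.4%, 60.0% and 26.9% for Primary, Secondary and the others.

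Since the share in the other stages is the size-weighted mean of their shares, the table itself fixes how large the stages are. The sizes that matched it were 29.8% of nuclei in Primordial, 22.0% in Primary, 15.9% in Secondary and 32.2% in Antral. They were solved from 2680 equations over 1762 genes listed under at least 2 stages, and missed the printed shares by 0.0278 points on average and 0.0936 points at most, where the printed shares are rounded to 0.1 points. Primary was thus smaller than Antral and Primordial and larger than Secondary.

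The Primary list overlapped most with Secondary. The 887 genes shared with Secondary were 60.9% of the Primary list and 68.0% of the Secondary list, and 645 of them had the higher share in Primary, 232 in Secondary. The 512 genes shared with Primordial were 35.1% of the Primary list and 35.04% of the Primordial list, and 482 had the higher share in Primary. The 290 genes shared with Antral were 19.9% of the Primary list and 23.6% of the Antral list, of which 136 were higher in Primary and 151 in Antral. The median difference over shared genes was 4.8 points against Primordial, 1.4 against Secondary and -0.15 against Antral.

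Among genes shared with Primordial, PPARG, a nuclear receptor of lipid metabolism, was seen in 81.2% of Primary nuclei, 60.3% of Primordial and 68.1% of Secondary nuclei. MYO10, an unconventional myosin of filopodia, was seen in 80.0%, 58.9% and 72.4%. TIMP3, an inhibitor of matrix metalloproteinases, was seen in 40.9% of Primary and 22.4% of Primordial nuclei. Among genes shared with Secondary, IGFBP2, which binds insulin-like growth factors, was seen in 48.0% of Primary and 35.3% of Secondary nuclei. MKX, a homeobox factor, was seen in 74.7% and 61.9%. Each of these genes was more widely seen in Primary than in any other stage under which it has a row.

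**Figure D2:**
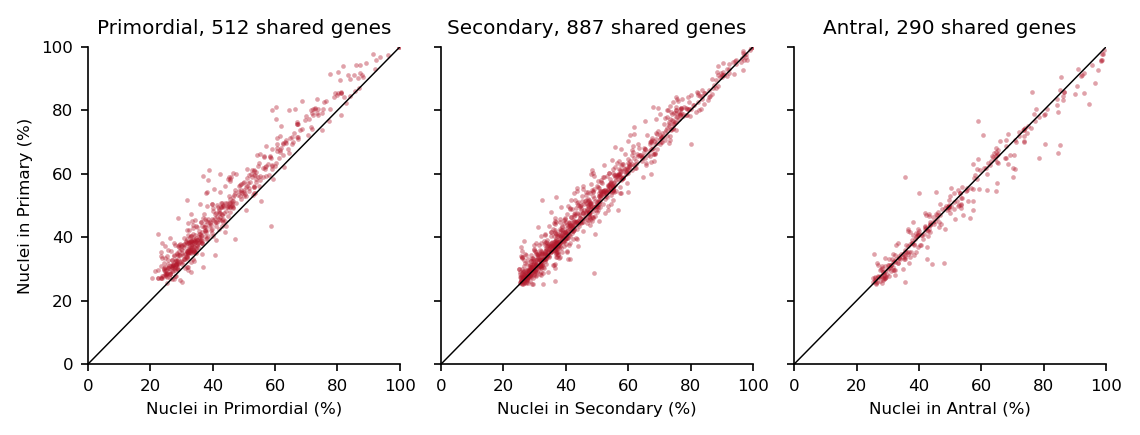
Share of nuclei in Primary (y axis, %) against the share in Primordial, Secondary and Antral (x axes, %) for the 512, 887 and 290 genes listed under both stages, with the line of equal shares. Points lie above the line for 482, 645 and 136 genes.

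A second deposited table divides GCs into common progenitor, cumulus and mural subtypes. The tables need not cover the same nuclei, since common progenitor GCs made up 33.6% of nuclei in the second and the near identical Primordial column 29.8% in the first. Of the Primary genes, 1197 were listed under cumulus GCs, which is 82.2% of the Primary list and 88.4% of the cumulus list, and 1141 of them had the higher share in Primary. The mean distance between both columns was 2.32 points. For comparison, the Primordial column lay 0.0585 points from that of common progenitor GCs over 1398 shared genes. Secondary was as near to cumulus as Primary, with 1008 shared genes, 77.2% of the Secondary and 74.4% of the cumulus list, at a mean distance of 2.11 points. The overlap with cumulus was thus not particular to Primary.

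The name of the stage was set against a list of 18 genes of primary-follicle GCs. Of these, 6 were listed under Primary, 4 each under Primordial, Secondary and Antral. AMH, which encodes anti-Müllerian hormone, had a row under Primary alone, with 28.8% against 8.2%. WT1, a transcription factor of early GCs, also had a row under Primary alone, with 27.1% against 10.4%. FSHR, the receptor of follicle-stimulating hormone, was seen in 98.1% of Primary, 96.7% of Secondary and 85.0% of all non-Primary nuclei. CDH2 (N-cadherin) was seen in 95.1% against 83.0%, FST (follistatin) in 61.6% against 49.0%, and GATA4, a transcription factor of GCs, in 69.9% against 63.0%. FST was more widely seen in Antral, at 70.7%. The remaining 12 genes of the list, among them FOXL2, KITLG and GJA1, had no row under Primary.

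Of the 19708 genes seen in at least 5 nuclei, 7.39% are listed under Primary, which is the background for the counts of gene lists below. Of 18 antral genes, only VCAN (versican, a matrix proteoglycan) was listed under Primary, with 91.9%, beside 92.8% in Antral; Antral listed 11. None of 15 steroidogenic genes was listed under Primary, Primordial or Secondary, and Antral listed 4.

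Among 13 gonadotropin, steroid and growth factor receptors, 7 were listed under Primary. The estrogen receptor ESR1 was seen in 74.0%, 74.3% and 73.7% of Primary, Secondary and Antral nuclei, and the second estrogen receptor, ESR2, had a row under Primary alone, with 25.3% against 15.9%. INSR (insulin receptor), IGF1R and NR3C1 (glucocorticoid receptor) differed by less than 10 points. Of 37 genes of the TGF-beta and BMP family, 8 were listed, 3 of them with at least 10 points: AMH, FST and TGFBR3 (betaglycan). Of 43 WNT genes, 5 were listed, and CTNNB1 (beta-catenin) was seen in 68.7% against 54.9%. NOTCH2, with 77.3% against 65.7%, was the only one listed of 18 NOTCH genes.

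Of 36 extracellular matrix genes, 6 were listed under Primary, all but VCAN components of the basement membrane, and 5 reached 10 points. COL4A3 and COL4A4, which encode type IV collagen chains, were seen in 80.2% against 45.2% and in 82.6% against 59.0%. HSPG2 (perlecan) was seen in 67.7% against 43.8% and LAMC1, a laminin chain, in 43.8% against 31.4%. Secondary nuclei were close for these genes, with 75.2%, 79.6%, 67.8% and 41.5%. VCAN was the fifth with at least 10 points, and COL4A5 was seen in 27.2% against 23.9%.

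Of 38 cell cycle genes, 2 D-type cyclins were listed under Primary. CCND2 was seen in 44.6% of Primary and 36.1% of Secondary nuclei, against 24.0% outside Primary. CCND3 was seen in 34.4% of Primary and 40.6% of Primordial nuclei. Secondary listed 8 of the 38. TOP2A, a marker of dividing cells, had no row under Primary, and its Secondary row allows at most 25.4% of Primary nuclei.

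Cholesterol synthesis genes were listed equally often, with 7 of 27 under each of Primary, Secondary and Antral and none under Primordial. Ribosomal protein genes showed another order. Of 39, 7 were listed under Primary, all with at least 10 points, 2 under Secondary and none under Primordial or Antral. RPS9 was seen in 43.4% against 27.7%, and RPL8 in 25.8% against 14.4%. Of 13 mitochondrially encoded genes, 4 were listed under Primary, each with the lower share there. ND2, a subunit of complex I, was seen in 69.3% of Primary, 80.1% of Secondary and 80.6% of Antral nuclei, and the sizes of the stages leave 65.7% for Primordial, so Primary lay between Primordial and the later stages. Secondary listed 10 of the 13 and Antral 8.

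**Figure D3:**
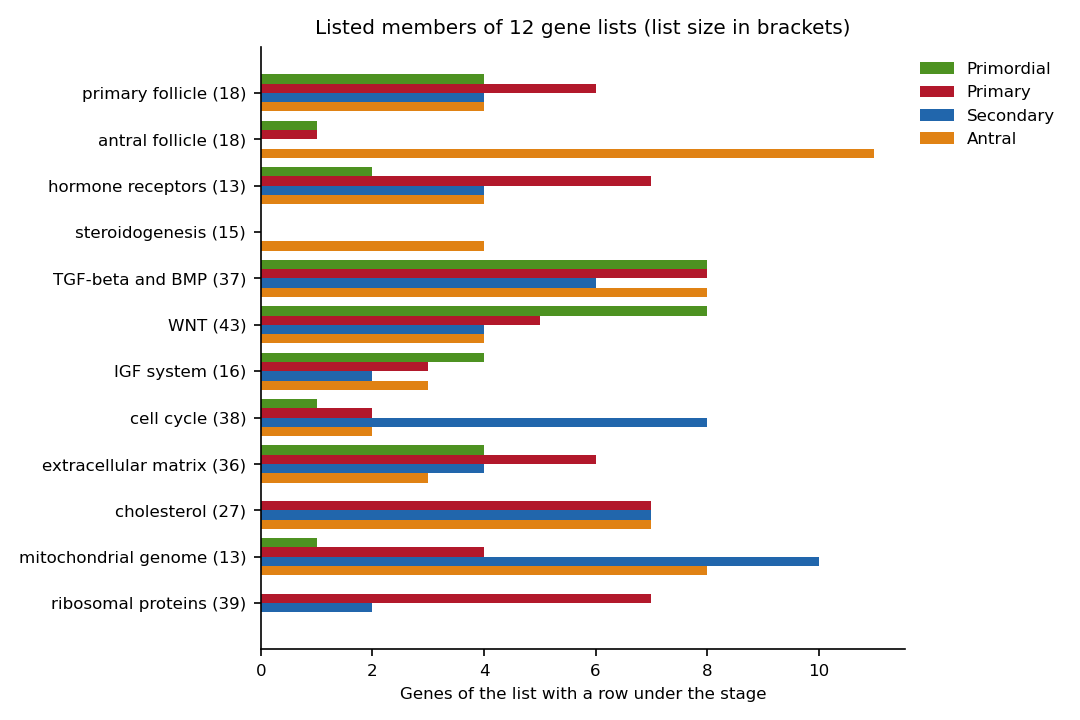
Number of genes with a row under each stage (x axis) for 12 gene lists, with the size of each list in brackets. Primary has, for example, the longest bar for hormone receptors (7 of 13), ribosomal proteins (7 of 39) and extracellular matrix (6 of 36), and no bar for steroidogenesis.

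Of 28 transcription factors of GCs, 7 were listed under Primary, 11 under Primordial and 8 under Antral. RUNX1 was seen in 61.4% of Primary and 50.9% of Primordial nuclei. Of 30 genes of the Hippo and PI3K pathways, which act in follicle activation, STK4 and FOXO3 were listed under Primary and 9 under Primordial. FOXO3, whose loss activates primordial follicles in mice, was seen in 65.4% of Primary and 56.6% of Primordial nuclei. Of 25 genes of apoptosis and atresia, XIAP alone was listed, with 32.2% against 28.5%. Besides IGF1R and INSR, IGFBP2 was the only gene listed of 16 in the IGF system.

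Of 91 markers of other ovarian cells, 2 (2.20%) were listed under Primary, beside the 7.39% of all genes seen. None of the theca, stroma, pericyte, blood endothelial, T and NK cell, macrophage, epithelial, ciliated, fibroblast or oocyte markers was listed. MMRN1, 1 of 6 lymphatic endothelial markers, was seen in 60.4% against 29.9%, and MYH11, 1 of 8 smooth muscle markers, in 59.9% against 37.9%.

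The deposited files used here give no stage for a single nucleus, so the counts were clustered to find nuclei that resemble the Primary column. After filtering, 44734 of 48332 nuclei remained, and 24338 lay in 8 GC-like clusters. Of these, 3 clusters with 11213 nuclei were named from GC markers. The other 5, with 13125 nuclei, had too few markers for a name. They were taken in since the stage table names 2 or more of the 10 genes that lead each of them. The largest of these, with 6445 nuclei of which 2259 came from Du'an 2, was led by LOC102168680, LOC102175876 and LOC102168959, genes seen almost only in Du'an 2 and not in the stage table's Primary list. Of 13 subclusters of these, the 2 nearest to the Primary column were taken as Primary-matched, 5658 nuclei or 23.2% of the GC-like set. Over the 1457 genes their shares lay 1.08 points from the Primary column on average, 3.49 points at most, with 1374 genes within 2 points and a Pearson correlation across genes of 0.999. Taken apart, the first of these subclusters (3214 nuclei) lay 2.19 points from the Primary and 4.08 from the Secondary column. The second (2444 nuclei) lay 3.60 and 4.01 points away, so it was nearly as close to Secondary. The remaining GC-like nuclei lay 2.88 points from the column of the other stages. These nuclei were chosen by the shares of these genes, so the nearness is a description and has no test. It rested on Du'an 2: without this goat the mean distance was 5.31 points, with 194 genes within 2 points and a correlation of 0.981, whereas without any other goat it was at most 0.921 points. Another subcluster nearest to Primary was left out because TOP2A was seen in 88.7% of its 841 nuclei. The table allows 25.4% over all Primary nuclei together, which does not bind a single subcluster. This limit was set after the values were seen. With that subcluster included, the matched set held 6499 nuclei and lay nearer to the column, at 0.885 points on average.

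Membership depended on the random seed of the clustering. Under 10 other seeds the mean distance from the column ranged from 0.973 to 4.41 points. Of 5920 nuclei matched in any of the 11 runs, 1583 were matched in every run, and 1534 of those came from Du'an 2. With the first seed 5390 of the 5658 nuclei were matched in at least 6 runs. At a resolution of 0.3 no subcluster met the criteria. There a subcluster of 7702 nuclei lay 3.183 points from Primary and 3.180 from Secondary. Its Pearson correlation was 0.996 with Primary and 0.978 with Secondary. Another, of 848 nuclei, was nearest to Primary and over the TOP2A limit. Values of matched nuclei below are from the first seed.

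The Primary-matched share of GC-like nuclei was 25.0% in Du'an 1 (1134 of 4539 nuclei, 95% exact binomial interval 23.7% to 26.3%) and 55.5% in Du'an 2 (2930 of 5283, 54.1% to 56.8%). It was 4.41% in Nubian 1 (403 of 9131, 4.001% to 4.86%) and 22.1% in Nubian 2 (1191 of 5385, 21.0% to 23.2%). These intervals cover counting error only. Both Du'an goats lay above both Nubian goats, Du'an 1 by 2.87 points over Nubian 2, and the difference of means was -26.96 points (Nubian minus Du'an; two-sided exact permutation test, p = 0.333, the smallest that 2 goats against 2 can give). Under the other seeds the share ranged from 1.83% to 25.1% in Du'an 1, 40.6% to 55.4% in Du'an 2, 0.252% to 4.98% in Nubian 1 and 1.00% to 22.3% in Nubian 2. At resolution 0.8 this order was lost, with 18.4% in Du'an 1 and 19.2% in Nubian 2 (two-sided exact permutation test, p = 0.667). Both Du'an goats lay above both Nubian goats under 7 of the 10 seeds, and Du'an 2 was the highest under all 10. Du'an 2 gave 51.8% of all matched nuclei. Without Du'an 2 the difference of means was -11.72 points, and without Du'an 1 it was -42.2 points.

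**Figure D4:**
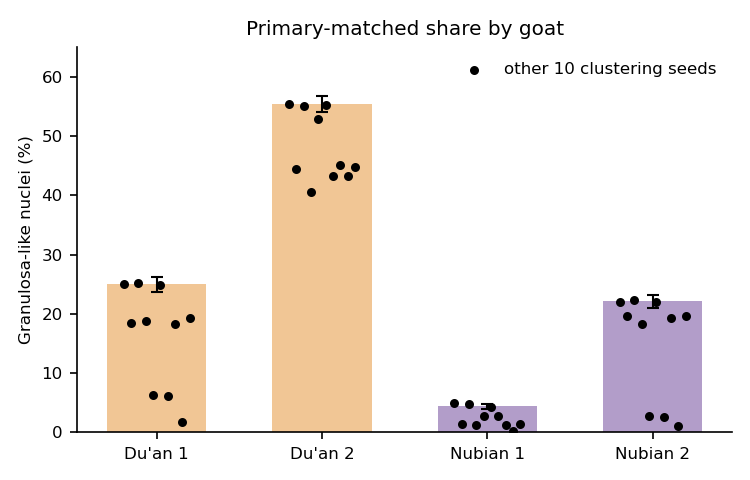
Share of GC-like nuclei that were Primary-matched (y axis, %) in each goat. Bars are the first seed with 95% exact binomial intervals and points the 10 other seeds; Du'an 2 stays between 40.6% and 55.5%, whereas Du'an 1 and Nubian 2 fall to 1.83% and 1.00% under 1 seed.

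Within each goat, levels were compared between Primary-matched and other GC-like nuclei as CPM (the UMIs of a gene per 1000000 UMIs), which do not scale with depth. The median depth was 3245, 5732, 3420 and 3884 UMIs in matched nuclei of Du'an 1, Du'an 2, Nubian 1 and Nubian 2, and 4158, 5137, 3473 and 3466.5 in the others. Of the 1457 genes, 710 (48.7%) had the higher CPM in matched nuclei of all 4 goats, and 10 the lower, beside 26.0% and 15.0% of the 8249 genes with at least 10 CPM in either set. Since the matching used the shares of these genes, nothing is read from the excess. Of the 384 genes with at least 10 points, 294 were higher in all 4 goats, and 303 in the 3 goats other than Du'an 2. Without Du'an 2, 822 of the 1457 genes were higher in the remaining 3 goats, beside 33.6% of all 8297 genes at that level. Under the seed that gave the fewest, 421 of the 1457 genes were higher in all goats. The levels below are likewise a description of the matched nuclei.

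Of the 18 genes of primary-follicle GCs, 11 reached 10 CPM in either set, and 5 of these were higher and 2 lower in matched nuclei of all 4 goats, beside the 26.0% and 15.0% of all genes at that level. AMH had 72.8, 102, 72.6 and 50.3 CPM in matched nuclei of Du'an 1, Du'an 2, Nubian 1 and Nubian 2, and 16.3, 32.9, 19.0 and 10.4 CPM in the others. Every matched value lay above every other value, with a mean log2 ratio of 1.93 ± 0.26 (SD, n = 4 goats). Each nucleus was also thinned to 2000 UMIs, leaving out 365, 407, 84 and 309 shallower matched and 1047, 563, 2738 and 1440 shallower other nuclei. AMH was then seen in 14.8%, 17.1%, 13.2% and 9.98% of matched and 2.8%, 6.6%, 3.7% and 1.6% of other nuclei. Without thinning these shares were 23.6%, 34.1%, 22.8% and 19.1%, and 7.0%, 14.6%, 7.2% and 4.3%. WT1 had 112, 86.7, 91.1 and 81.2 CPM against 37.6, 33.8, 27.8 and 22.4 CPM, again without overlap. FSHR had 3467, 3522, 3512 and 3509 CPM in matched nuclei and 1417, 1521, 1842 and 1173 CPM in the others. Its matched levels varied less between goats (SD 24.5 CPM) than the others (SD 277 CPM). Of the 2 lower genes, IGFBP5, a binding protein of insulin-like growth factors, had 61.3, 30.4, 70.8 and 26.9 CPM in matched nuclei and 357, 189, 167 and 177 CPM in the others. BMPR1B, a receptor of bone morphogenetic proteins, had 1168, 1313, 1527 and 999.7 CPM against 2408, 1564, 1532 and 1467 CPM.

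SLC7A1 had 312, 451, 355 and 446 CPM in matched nuclei and 119, 109, 104 and 122 CPM in the others, a mean log2 ratio of 1.76 ± 0.28. CTNS had 155, 182, 102 and 157 CPM against 38.6, 39.9, 28.5 and 32.9 CPM. COL4A3 had 646, 1500, 807 and 591 CPM against 228, 642, 375 and 161 CPM, so the sets overlapped between goats although each goat was higher in its matched nuclei. Du'an 2 was the highest in both sets.

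Of the 38 cell cycle genes, 25 reached 10 CPM in either set. Of these, 4 were higher and 15 lower in matched nuclei of all 4 goats, beside 26.0% and 15.0% of all genes at that level. The summed level of the 38 was 971, 756, 828 and 1269.6 CPM against 1193, 1714, 1854 and 1702.5 CPM. The others include the subcluster left out of the matched set for its TOP2A share. They also include another with TOP2A in 91.4% of its 823 nuclei, of which 768 came from Nubian 1. CCND2 had 255, 185, 198 and 305 CPM in matched nuclei and 48.9, 143, 107 and 96.5 CPM in the others. Every matched value lay above every other value. Of the 39 ribosomal protein genes, 37 reached 10 CPM in either set. Of these, 36 were higher in matched nuclei of all 4 goats, beside 26.0% of all genes at that level. The summed level of the 39 was 2009, 2048, 3393 and 1678 CPM against 784, 903, 951 and 1155 CPM. The excess was largest in Nubian 1, the goat with the fewest matched nuclei.

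Other genes of the list had no common direction in the 4 goats. IGF1R had 1608, 1496, 1353 and 1705 CPM in matched nuclei and 1912, 892, 876 and 1946 CPM in the others, lower in Du'an 1 and Nubian 2 and higher in Du'an 2 and Nubian 1. FOXO3 had 272, 564, 260.2 and 368 CPM against 420.2, 294, 214 and 519 CPM, with the same split of goats. FST had 1430, 332, 466 and 664 CPM against 233, 593, 508 and 269 CPM, with the opposite split. Subclusters nearest to the Primordial column held 69.4% and 63.7% of GC-like nuclei in Du'an 1 and Nubian 2, 18.6% in Nubian 1 and fewer in Du'an 2. They include a shallow subcluster (median 755 UMIs) that lay 31.4 points from the Primordial column and held 1071 nuclei of Nubian 1. Without it they held 67.4%, 61.8%, 6.87% and 4.28% in Du'an 1, Nubian 2, Nubian 1 and Du'an 2. Those nearest to Antral held 0.0661% in Du'an 1, 8.34% in Nubian 2, 28.5% in Du'an 2 and 56.9% in Nubian 1. The comparison nuclei thus differed in stage between the goats. The matched nuclei differed in makeup as well, since the 2 matched subclusters held 335 and 799 nuclei in Du'an 1, 2446 and 484 in Du'an 2, 273 and 130 in Nubian 1 and 160 and 1031 in Nubian 2. The first was the larger in Du'an 2 and Nubian 1 and the smaller in Du'an 1 and Nubian 2, the same split of goats. Its part in these levels and in the breed comparison was not tested. Mitochondrially encoded genes summed to 6029, 15479, 17434 and 16178 CPM in matched nuclei and 6122, 12042, 15271 and 12185 CPM in the others. The sum was higher in 3 of 4 goats, although the share of nuclei with ND2, COX1, COX3 and ND3 was lower under Primary in the table. Du'an 1 had the lowest sum in both sets. Without COX2, ATP8 and ATP6, the 3 genes nearly missing from Du'an 2, the other 10 summed to 4750.5, 15477, 14212 and 12948 CPM in matched nuclei and 4867, 12040.0, 12367 and 9852 CPM in the others, with the same goats higher.

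**Figure D5:**
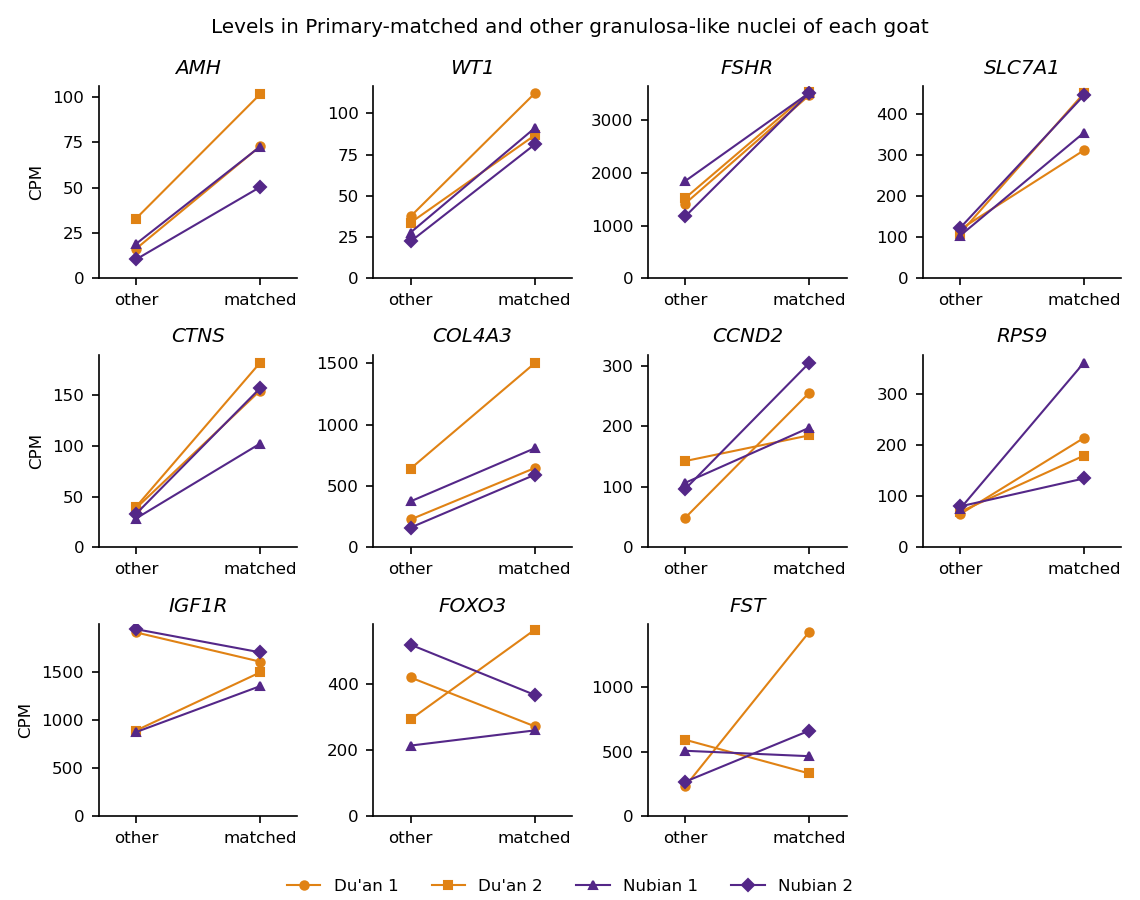
Level of 11 genes (y axes, CPM, each starting at 0) in other and in Primary-matched GC-like nuclei, with 1 line per goat (orange Du'an, purple Nubian). Lines of AMH, WT1, FSHR, SLC7A1, CTNS, COL4A3, CCND2 and RPS9 rise in all 4 goats, and those of IGF1R, FOXO3 and FST rise in some goats and fall in others.

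Markers of other cells were checked in the matched nuclei. The 10 oocyte markers summed to 4.54, 7.48, 4.17 and 3.05 CPM in the 4 goats, with DDX4 the most abundant at 2.40 CPM on average and 4 of the 10 at 0. The 9 T and NK cell markers summed to 12.9, 41.5, 33.9 and 18.8 CPM, and the 8 blood endothelial markers to 68.3, 57.4, 73.2 and 68.6 CPM. The 6 lymphatic markers summed to 463, 604, 341 and 415 CPM, and MMRN1 made up 442, 584, 307 and 402 CPM of that, whereas the defining markers PROX1 and LYVE1 stood at 4.5, 3.5, 5.4 and 4.9 CPM and at 0.2, 0.7, 0.6 and 0.3 CPM. The 8 smooth muscle markers summed to 509.6, 543, 721 and 481 CPM, of which MYH11 held 239, 394, 357 and 242 CPM. The stroma markers summed to 637, 850, 379 and 767 CPM, against 764, 1606, 428 and 1630 CPM in the other GC-like nuclei. TSHZ2 made up 351, 582, 102 and 484 CPM of the matched sums. The 7 pericyte markers summed to 70.9, 32.2, 47.6 and 50.3 CPM, against 29.9, 19.5, 23.8 and 48.7 CPM in the other GC-like nuclei. Sums of the remaining marker sets are not given here. The part of RNA from other cells in these levels was not tested.

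The breeds were compared on UMI counts summed per goat, with edgeR's quasi-likelihood test and Benjamini-Hochberg adjustment over all genes. No gene passed an adjusted p of 0.05 in Primary-matched nuclei (0% of 12060 genes tested), and none of the 1457 Primary genes, all of which were tested. At an unadjusted edgeR p under 0.05 stood 356 genes (2.95%), among them 36 Primary genes (2.47%). The number of Primary genes under that p rose with any 1 goat left out. Their share then lay above that of all genes, except without Nubian 1. DESeq2 called 15 of the 19218 genes with at least 1 UMI (0.0781%), 3 of them Primary genes (0.206% of 1457). A further 3 of the 15 were LOC102175876, LOC102168680 and LOC102168959, seen almost only in Du'an 2. The filter within DESeq2 can leave some of the genes it is given without an adjusted p. The median log2 fold change (Nubian over Du'an) was -0.06 over the Primary genes and 0.00 over all genes tested. Without Du'an 1, edgeR called COX2 and ATP6, both mitochondrially encoded and neither on the Primary list (named after their values were seen). COX2 had 1.28 and ATP6 0.908 CPM in matched nuclei of Du'an 2, the only Du'an goat left, and 1057 and 1039 and 2146 and 2187 CPM in the Nubian goats. In Du'an 1 they had 434.5 and 836 CPM. Without Du'an 2 edgeR called no gene. The calls without Du'an 1 depended on the seed, and under seeds 2, 4, 8, 9 and 10 they included Primary genes. With 1 goat of a breed left out, the remaining goat of that breed is assumed to vary like the other breed. Without a filter on low counts edgeR called 185 (0.963% of 19218 genes), of which 32 were Primary genes (2.20% of 1457). Over all GC-like nuclei the edgeR count was again 0 (0% of 15139 genes). There 402 genes (2.66%), among them 42 Primary genes (2.88% of the Primary genes), stood at an unadjusted edgeR p under 0.05. DESeq2 called 26 of the 20948 genes with at least 1 UMI (0.124%), 6 of them Primary genes (0.412% of 1457). In GC-like nuclei the number of Primary genes at an unadjusted edgeR p under 0.05 rose without Du'an 1 or Nubian 2. It fell without Du'an 2 or Nubian 1. With all goats, the p-values measure the spread between 2 goats per breed.

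ADGRG6, CACNA1C and CNTNAP2 were the Primary genes that DESeq2 called in matched nuclei; the latter 2, a calcium channel subunit and a neurexin-family adhesion protein, were chosen after their values were seen. ADGRG6 had 299 and 328 CPM in the Du'an and 143 and 149.6 CPM in the Nubian goats, without overlap. Its log2 fold change was -1.14 with a standard error of 0.16 and an adjusted p of 1.00 in edgeR, and -1.16 with an adjusted p of 0.0235 in DESeq2. Over 36 alternatives the log2 fold change stayed between -1.45 and -0.84, and the adjusted p between 5.19e-05 and 1.00, with 6 calls. The DESeq2 call was lost with each goat left out in turn. AMH, with 72.8 and 102 CPM in the Du'an and 72.6 and 50.3 CPM in the Nubian goats, differed by -0.58 (standard error 0.27, edgeR adjusted p = 1.00). FSHR differed by -0.04 (standard error 0.21) and SLC7A1 by 0.02 (standard error 0.26), each with an edgeR adjusted p of 1.00.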

How the data were processed

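The authors deposited 1 matrix of UMI counts per library, filtered to nuclei by Cell Ranger (5.0.0 per the labels, 3.1.0 per the file headers), and tables of marker genes by stage and subtype. From these tables only the shares of nuclei, which the authors give as a fraction, were used. Their log fold changes and p-values were not used. Members and gene lists were chosen with earlier results of these data known.

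Stage sizes were fitted by least squares on genes listed under at least 2 stages, because none is listed under all 4. Nuclei were kept within 2 SD of the mean UMI and gene counts and at most 20% mitochondrial UMIs. Scrublet marked 0, 151, 0 and 0 doublets, too few for a working caller. Counts were clustered (scanpy 1.11.5, leidenalg 0.10.2, 2000 variable genes without markers, 30 components, 20 neighbours, resolutions 0.8 and 0.5). Neighbours were searched exactly: an approximate search used first gave different matched sets from run to run, with earlier results seen. GC-like clusters were named from markers, or unnamed with at least 2 of 10 leading genes in the stage table. Summed counts were tested with edgeR 4.0.16 (filterByExpr, TMM), with DESeq2 1.42.0 as an alternative, and checked on simulated data. Log2 ratios used CPM + 1. Named genes were the 12 largest differences, 6 largest ratios, 6 largest gaps to Primordial and to Secondary, and list members. Single genes of some lists are not reported here.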

Additional observations from a re-analysis of the deposited data

How the results depend on the processing

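The count of 384 genes with at least 10 points became 875 at 5 points, 87 at 20 points and 212 with a ratio of at least 1.5, and no gene is listed under all 4 stages. The fitted size of Primary was 22.0% under both other fits. The breed count of 0 became 15 with DESeq2 and 185 without a filter on low counts in Primary-matched nuclei, and 26 with DESeq2 in GC-like nuclei. The causes were not tested. Leaving out 1 goat at a time gave 0 to 2 calls in Primary-matched and 0 in GC-like nuclei with edgeR, whereas DESeq2 gave 34, 10, 10 and 14 in Primary-matched and 47, 82, 20 and 90 in GC-like nuclei without Du'an 1, Du'an 2, Nubian 1 and Nubian 2. Without Du'an 1 the edgeR count in Primary-matched nuclei depended on the matched set, with 174, 216, 149 and 143 calls under seeds 2, 4, 8 and 10, 14 under seed 9 and 6 or 7 under the others, so its value of 2 is not stable. These DESeq2 and seed fits were added after seeing the data. ADGRG6 passed the threshold in Primary-matched nuclei with DESeq2, without the filter and, without Du'an 1, under 4 of the 10 seeds. With the replicate number as a block the breed counts were 0 in both sets, and the correlation of deviations between goats of the same number was -0.31 in GC-like and -0.02 in Primary-matched nuclei. The labels give no pairing. Crossing the numbers in the block, added after seeing the data, gave 1 call in GC-like and 0 in Primary-matched nuclei.

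The breed difference in the Primary-matched share kept its direction under all alternatives run. It was -21.19 points at resolution 0.8, where Nubian 2 lay above Du'an 1, -28.21 without the 10% highest doublet scores, -19.92 to -26.93 under 10 other seeds and -11.72 to -42.2 without 1 goat at a time. The 10 seeds and the inclusion of the cycling subcluster were added after seeing the data. At resolution 0.3 no nuclei were matched, so it gave no value. The matched set limits every level by goat: Nubian 1 contributes 403 nuclei, and 3 of the 10 seeds (5, 7 and 9) moved the mean distance to 2.12, 2.47 and 4.41 points, and leaving out Du'an 2, also added after seeing the data, moved it to 5.31.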

Other observations

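At least 4 genes were seen almost only in the Du'an 2 library (chosen after their values were seen). LOC102175876 had 10762 UMIs in the GC-like nuclei of Du'an 2 and 11, 10 and 0 in those of Du'an 1, Nubian 1 and Nubian 2. LOC102168680 had 6197 UMIs in Du'an 2 and 0 in each of the others, and LOC102168959 had 3582 in Du'an 2 and 0, 1 and 0 in the others. HBBC, a beta-type globin of hemoglobin, had 1814 UMIs in Du'an 2 and 1, 1 and 0 in the others. None of them is listed under Primary. ATP8, a further mitochondrially encoded gene, had 0 UMIs in Du'an 2 and 182, 504 and 132 in the other libraries, beside the low COX2 and ATP6 of the same library, whereas COX3 had 185141 UMIs in Du'an 2 and 40382, 178091 and 99400 in the others.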
